A study of Mus musculus with 2 samples.

Results

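The 10 genes described here handle iron and haem in the macrophage: Slc40a1, Cp, Cd163, Hp, Hmox1, Tfrc, Slc11a2, Slc11a1, Fth1 and Ireb2. They were taken from a list of names, and every probe set that the array's annotation assigns to one of them alone was used. This list and the lists used below were chosen with earlier results of these data known. Their counts beside all genes are therefore a description only. This gave 27 probe sets for 10 genes, of 34958 probe sets for 18193 named genes in all. RNA came from peritoneal macrophages of C57BL/6J mice aged 8 weeks, with 1 array per group. The elicited group (labelled TGPMs) was harvested 3 days after each mouse had 1 mL of 3% thioglycollate injected into the peritoneal cavity, where this sterile irritant recruits leukocytes. The resident group (labelled RPMs) came from untreated mice. Both groups were selected by adherence to a culture dish for 2 h. The series text speaks instead of culture overnight, so the time in culture is uncertain, and the sources used here do not say how many mice stand behind each array.

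Macrophages that engulf old red cells take in haemoglobin, break open its haem and either store the iron in ferritin or send it back to the blood. Haem oxygenase opens the ring, ferroportin is the only known exporter of iron from mammalian cells, and ferroxidases such as ceruloplasmin oxidise the iron that leaves so that transferrin can carry it. Iron regulatory proteins read the free iron of the cell and bind elements in the messages for ferritin, ferroportin and the transferrin receptor. Much of this control acts on translation, which an array of RNA does not measure.

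The widest differences among the 10 genes were in those of haemoglobin capture and of iron oxidation. Cp and Hp were far lower in elicited macrophages. Cd163 was lower too, by a size that rests on the background limit defined below. Ireb2 was lower by about the 2-fold threshold, and Slc40a1 gave opposite answers from its pair of probe sets. Ferritin heavy chain, haem oxygenase and the iron importers lay within 2-fold. Signals are the authors' MAS5 intensities on a linear scale, and a background limit of 82.2 marks the 95th percentile of 252 values from olfactory, vomeronasal, taste receptor and keratin-associated genes, which macrophages are not thought to express. A signal at or under the background limit was raised to it, so a ratio against such a signal is only a bound, marked by "at least" before the fold. Each gene is represented by its brightest probe set (by mean log2 signal). All 10 genes were above the background limit on at least 1 array, 25 of their 27 probe sets were above it on at least 1 array and 17 on both.

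Of the 10 genes, 1 was higher by 2-fold or more and 4 were lower by 2-fold or more in elicited macrophages. Among all 11560 named genes above the background limit, 8.04% were higher by 2-fold or more and 11.8% lower by 2-fold or more. The median log2 ratio of elicited over resident signal was -0.19 over the 10 genes and -0.03 over all genes. With 1 array per group no difference could be tested, and no value carries a replicate error. The only spread these arrays hold is the spread between the probe sets of a gene, with an SD of 0.48 on the log2 scale over 4465 genes. It does not cover differences between animals or cultures. On the deposited scale the differences in Hmox1, Slc11a2, Slc11a1 and Fth1 were smaller than this SD. Under other scalings some exceeded it. Hmox1 was at -0.64 with quantile normalization, -0.66 with the loess trend removed and -0.76 with equal hybridisation controls. Slc11a2 was at 0.63 with quantile normalization, 0.59 with the loess trend removed and 0.71 with equal medians, where Fth1 was at 0.49.

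**Figure D1:**
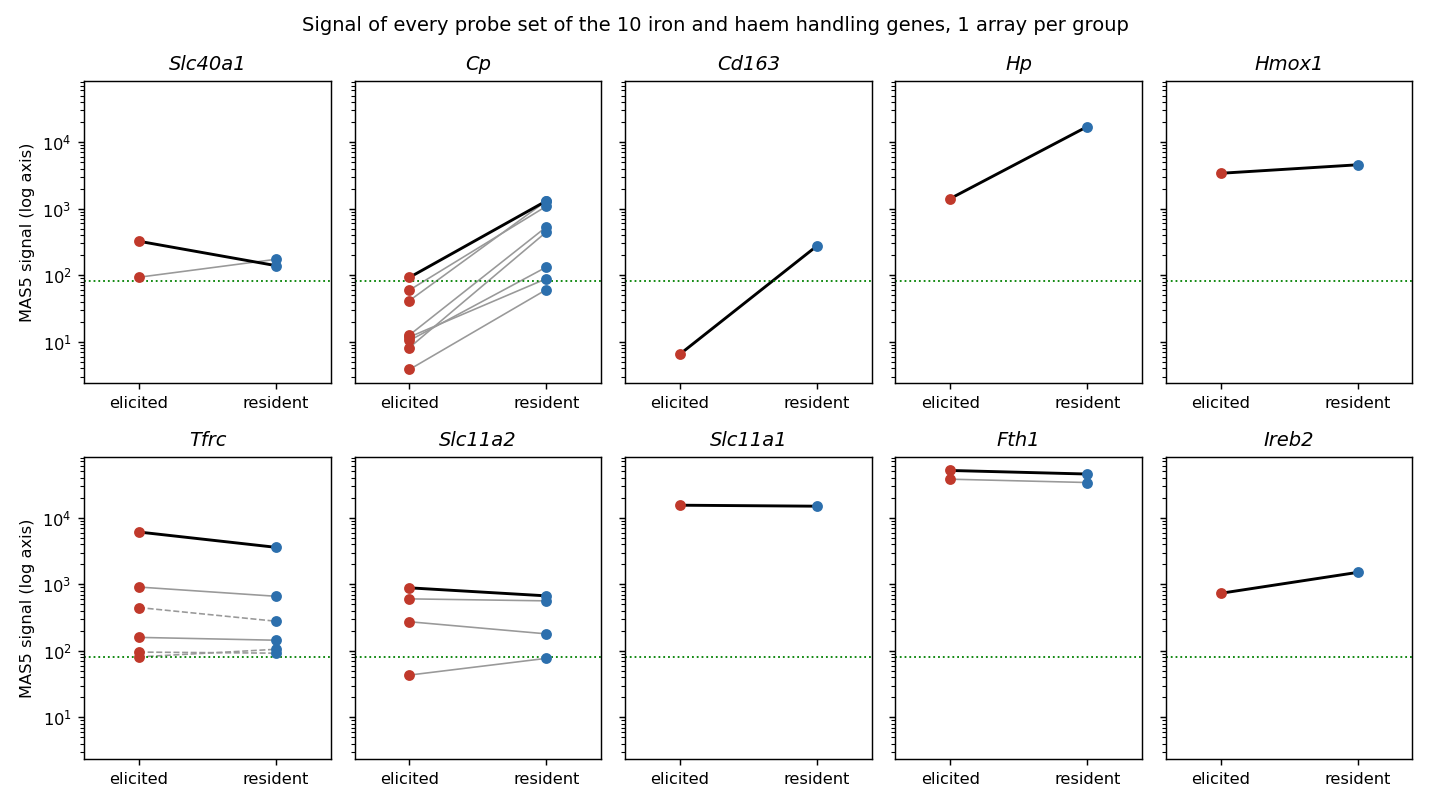
MAS5 signal of each probe set (log axis) in elicited (left of each panel) and resident macrophages (right), with 1 panel per gene. Black lines join the representative probe set, grey lines the others, dashed lines the array's own Tfrc quality controls, and the green dotted line is the background limit of 82.2. The brighter lines of Cp, and those of Hp and Cd163, are lower on the elicited side, and the 2 lines of Slc40a1 cross.

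The annotated starts of Cp and Cd163, which were lower together, are shown to give the sequence context. The windows are the 250 bases before the start in RefSeq's GRCm38.p6, on the plus strand, and the Cp window is the more downstream of its 2 listed starts. Capitals mark a match to the C/EBP motif TTNNGCAA, which is bound by a family of factors known from the acute-phase response and from myeloid cells. The Cp window lies at chr3:19956999-19957248 and the Cd163 window at chr6:124304401-124304650.
Cp: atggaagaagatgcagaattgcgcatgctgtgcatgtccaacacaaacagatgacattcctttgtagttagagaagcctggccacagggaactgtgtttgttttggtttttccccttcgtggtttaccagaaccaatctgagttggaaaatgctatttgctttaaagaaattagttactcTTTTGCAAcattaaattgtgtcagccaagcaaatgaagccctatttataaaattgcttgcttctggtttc
Cd163: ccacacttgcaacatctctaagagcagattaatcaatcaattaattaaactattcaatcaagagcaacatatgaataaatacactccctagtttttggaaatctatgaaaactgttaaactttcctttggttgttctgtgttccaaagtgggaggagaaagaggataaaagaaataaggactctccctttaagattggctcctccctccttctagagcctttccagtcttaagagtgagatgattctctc

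Both strands were searched for TTNNGCAA and for the AP-1 motif TGANTCA. The Cp window held 1 C/EBP match, which began 70 bases before the start, and no AP-1 match. The window of the other Cp start held 1 AP-1 match, TGATTCA, 177 bases before the start. The Cd163 window held neither. Over 32851 windows of the same length, 9.56% held a C/EBP match and 6.75% an AP-1 match. Windows were searched for 6 of the 10 genes, and of the other 4 (Tfrc, Slc11a1, Ireb2 and Fth1) only Fth1 had matches, 2 to the C/EBP motif at 1 of its 2 listed starts. A match describes letters only.

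Iron leaves the macrophage through ferroportin, the product of Slc40a1, and its probe sets disagreed. Probe set 1417061_at had a signal of 323 in elicited and 139 in resident macrophages, which is 2.33-fold higher (log2 ratio 1.22). Probe set 1448566_at had 93.2 in elicited and 173 in resident macrophages, which is 1.86-fold lower (log2 ratio -0.89). Both were designed on the same sequence record, and the elicited signal of the second was close to the background limit. The gene counts as higher by 2-fold or more only because the first probe set was brighter on average, and the mean over both was 0.16. No direction for Slc40a1 can therefore be read from these arrays. In elicited macrophages, 8 of 11 markers of mesothelium and fibroblasts above the background limit were higher by 2-fold or more. This was 72.7%, beside 8.04% of all genes. The summed signals of these markers were 16446 in elicited and 730 in resident macrophages, and their part in the Slc40a1 signal was not tested. Msln of that list was at or under the background limit on both arrays, and Upk3b, Wt1, Krt19, Lrrn4, Col1a1, Dcn and Pdgfra were so in resident macrophages.

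Cp encodes ceruloplasmin, the copper enzyme that oxidises iron as it leaves ferroportin, and it was lower in every probe set that could be read. The representative probe set, 1417494_a_at, had a signal of 92.5 in elicited and 1307 in resident macrophages, which is 14.1-fold lower (log2 ratio -3.82). Only this one of the 8 probe sets of Cp was above the background limit on both arrays, and its elicited signal was close to that limit. The gene ranked 30 from the lowest ratio among 9803 genes above the background limit on both arrays.

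The other 7 Cp probe sets were all under the background limit in elicited macrophages. Probe set 1448734_at had 41.5 in elicited and 1305 in resident macrophages, at least 15.9-fold lower. Probe set 1417495_x_at, whose suffix marks possible cross-hybridisation, had 59.7 in elicited and 1087 in resident macrophages, at least 13.2-fold lower. Probe sets 1417496_at (12.6 in elicited and 532 in resident macrophages) and 1455393_at (8.18 in elicited and 446 in resident macrophages) were at least 6.47-fold and at least 5.43-fold lower.

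The remaining 3 had resident signals of 132 or less. Probe set 1441326_at had 10.4 in elicited and 132 in resident macrophages, at least 1.61-fold lower. Probe set 1448735_at had 11.8 in elicited and 88.6 in resident macrophages, at least 1.08-fold lower, and its resident signal was under the 92.7 that the unexpressed families reached on the resident array alone. Probe set 1417497_at was under the background limit on both arrays, with 3.83 in elicited and 60.8 in resident macrophages, so no ratio is given. The 95th percentile of the unexpressed families was itself lower on the elicited array, at 67.9, than on the resident array, at 92.7. Several were designed on the same sequence record and are not independent measurements.

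Hp encodes haptoglobin, the plasma protein that binds free haemoglobin so that it can be cleared. It is made chiefly by the liver, and also by myeloid cells. Its single probe set had a signal of 1415 in elicited and 17044 in resident macrophages, which is 12.0-fold lower (log2 ratio -3.59). It remained well above the background limit in elicited macrophages, and its ratio ranked 36 from the lowest among the 9803 genes. Genes of similar signal were mostly higher, as the median log2 ratio of the 1156 genes in the same band of mean signal (each band holds 10% of the genes) was 0.40.

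Cd163 encodes the scavenger receptor for haemoglobin and for its complex with haptoglobin, a receptor known from tissue macrophages. Its single probe set had a signal of 6.50 in elicited and 274 in resident macrophages. It was therefore not above the background limit in elicited macrophages, and was at least 3.34-fold lower there (log2 ratio of at most -1.74). The resident signal was itself modest, so the size of the difference rests on the background limit: at the 99th percentile of the unexpressed families, a background limit of 174, the bound was -0.65 on the log2 scale and under 2-fold.

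Hmox1 encodes the inducible haem oxygenase, which opens haem to release iron, carbon monoxide and biliverdin. Its signal was 3393 in elicited and 4551 in resident macrophages, which is 1.34-fold lower (log2 ratio -0.42). The haptoglobin transcript was thus much lower and that of Cd163 lower by a bound only, while that of the enzyme downstream of uptake stayed within 2-fold.

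Markers of other cells differed between the arrays beside these genes. Their counts stand beside 8.04% of all genes higher and 11.8% lower by 2-fold or more. B cell markers were lower by 2-fold or more in elicited macrophages in 7 of 9 genes above the background limit, with summed signals of 4958 in elicited and 24754 in resident macrophages, and Cd79a and Cr2 were at or under the background limit in elicited macrophages. Cd22 and Pax5 of that list were higher in elicited macrophages, with log2 ratios of 0.85 and 0.18. Cd22 alone gave 4078 of the elicited sum and 2269 of the resident sum. Neutrophil markers were lower by 2-fold or more in 3 of 6 (summed signals of 8754 in elicited and 12839 in resident macrophages), while S100a9, Ltf, Ngp, Mpo, Elane and Cxcr2 were at or under the background limit on both arrays. S100a8 and Lcn2 of that list were higher in elicited macrophages, with log2 ratios of 0.35 and 0.45. S100a8 alone gave 4675 of the elicited sum and 3663 of the resident sum. Erythroid markers were lower by 2-fold or more in 2 of 2 genes above the background limit, both with low signals. Alas2 had 71.5 in elicited and 172 in resident macrophages, so its ratio is a bound. Epor had 112 in elicited and 242 in resident macrophages. Hba-a1, Klf1 and Slc4a1 were under the background limit on both arrays. The summed signals of 307 in elicited and 508 in resident macrophages include them. The part of these cells in the lower Cp, Hp and Cd163 was not tested. All 7 hepatocyte markers measured, among them Alb and Ttr, were at or under the background limit on both arrays, with summed signals of 102 in elicited and 136 in resident macrophages. Macrophage markers were above the background limit in 9 of 9 genes on both arrays, with 2 higher by 2-fold or more (Mrc1 and Fcgr1), 2 lower by 2-fold or more (Itgam and Cd14) and summed signals of 139902 in elicited and 141808 in resident macrophages. In such bulk RNA, fewer cells of a type and less RNA per cell cannot be told apart.

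**Figure D2:**
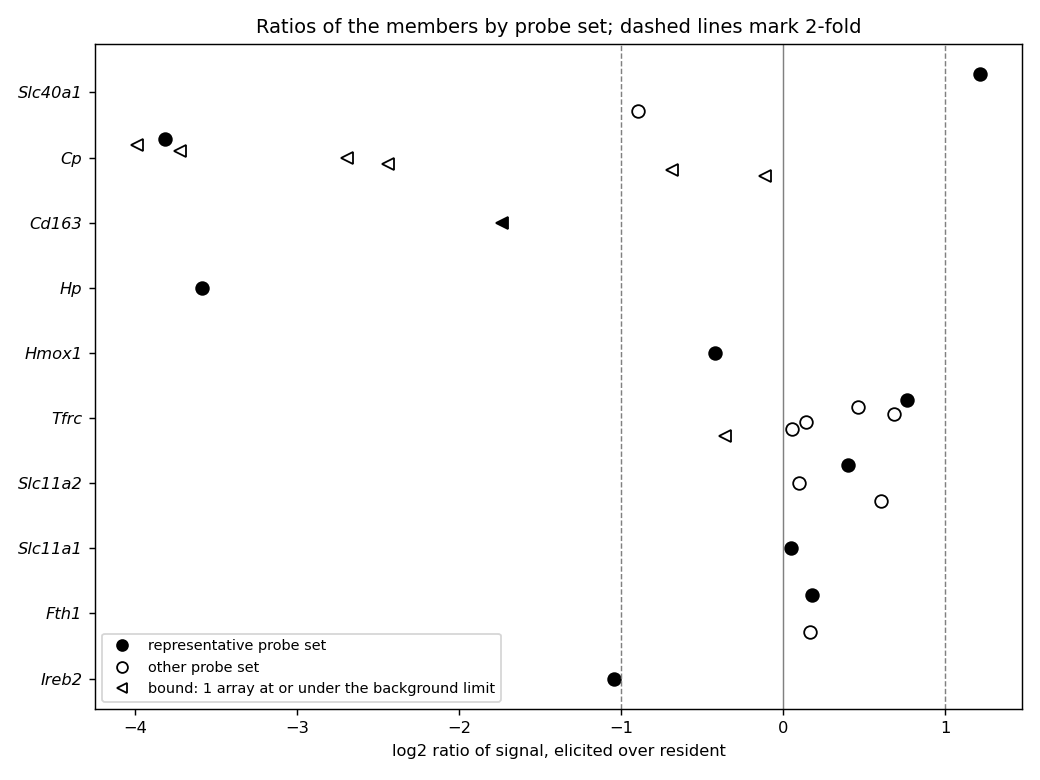
Log2 ratio of elicited over resident signal (x axis) for each probe set of the 10 genes (y axis). Filled symbols are representative probe sets, open symbols the others, triangles are bounds against the background limit, and dashed lines mark 2-fold. The 7 probe sets of Cp with a ratio all lie below 0, from -3.99 to -0.11, and those of Slc40a1 lie on both sides.

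Iron enters through the transferrin receptor, the product of Tfrc, whose transcript is stabilised when iron is scarce. The representative probe set 1452661_at had a signal of 6097 in elicited and 3592 in resident macrophages, which is 1.70-fold higher (log2 ratio 0.76). Probe set 1422966_a_at had 909 in elicited and 661 in resident macrophages (log2 ratio 0.46), and 1422967_a_at had 159 in elicited and 145 in resident macrophages (0.14). All 3 were higher in elicited macrophages, and none by 2-fold.

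The array also carries 3 quality-control probe sets along the Tfrc transcript, which are members by the same rule. The one nearest the 3' end had a signal of 447 in elicited and 279 in resident macrophages (log2 ratio 0.68). The middle one had 81.2 in elicited and 106 in resident macrophages and was at least 1.29-fold lower, and the one nearest the 5' end had 95.9 in elicited and 92.4 in resident macrophages (0.05). The ratio of 3' to 5' signal was 4.66 in elicited and 3.02 in resident macrophages. Along these controls the elicited signal was the higher one at the 3' end, while the middle and 5' probe sets were near the background limit on both arrays.

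Slc11a2 encodes DMT1, which moves ferrous iron out of the endosome after transferrin has released it. Its representative probe set 1452078_a_at had a signal of 885 in elicited and 671 in resident macrophages (log2 ratio 0.40, 1.32-fold higher). Probe set 1417584_at had 604 in elicited and 564 in resident macrophages (0.10), and 1426441_at had 274 in elicited and 180 in resident macrophages (0.61). All 3 were slightly higher in elicited macrophages. The fourth, 1441709_at, was under the background limit on both arrays (43.3 in elicited and 77.2 in resident macrophages).

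Slc11a1 encodes NRAMP1, a metal transporter of the phagosome membrane. It is described as starving engulfed microbes and is known from the mouse locus of resistance to intracellular infection. Whether the protein is functional in the mouse strain used here was not tested, and an array of RNA does not measure it. The Slc11a1 signal was 15423 in elicited and 14905 in resident macrophages (log2 ratio 0.05, 1.03-fold higher). Its paralogue Slc11a2 and the receptor gene Tfrc were also within 2-fold as deposited. On that scale the transcripts of the 3 genes listed as importers had log2 ratios between 0.05 and 0.76. The ferroxidase gene Cp was at -3.82.

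Fth1 encodes the ferritin heavy chain, whose ferroxidase centre loads iron into the storage shell. Probe set 1448771_a_at had a signal of 51289 in elicited and 45339 in resident macrophages (log2 ratio 0.18, 1.13-fold higher). Probe set 1427021_s_at had 37932 in elicited and 33806 in resident macrophages (0.17). The pair agreed closely. These signals lie close to the highest on the arrays, 58028 in elicited and 48947 in resident macrophages, and whether they were saturated was not tested. The ferritin heavy chain gene has many near-identical pseudogenes, and the suffix of the second probe set marks probes shared with other transcripts. Which of them its signal holds was not tested.

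Ireb2 encodes iron regulatory protein 2, the sensor that is degraded when iron is plentiful. Its single probe set had a signal of 733 in elicited and 1511 in resident macrophages, which is 2.06-fold lower (log2 ratio -1.04). It ranked 991 from the lowest among the 9803 genes. The gene passed 2-fold as deposited and in 7 of the 11 alternatives, and its log2 ratio ran from -1.38 to -0.74 over them. Aco1 encodes the other iron regulatory protein, which also serves as cytosolic aconitase. The Aco1 signal was 6791 in elicited and 3910 in resident macrophages (log2 ratio 0.80), and its readable probe sets pointed the same way (0.80 and 0.91). The signals of the pair thus differed in opposite directions, with no test of that contrast at 1 array per group.

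**Figure D3:**
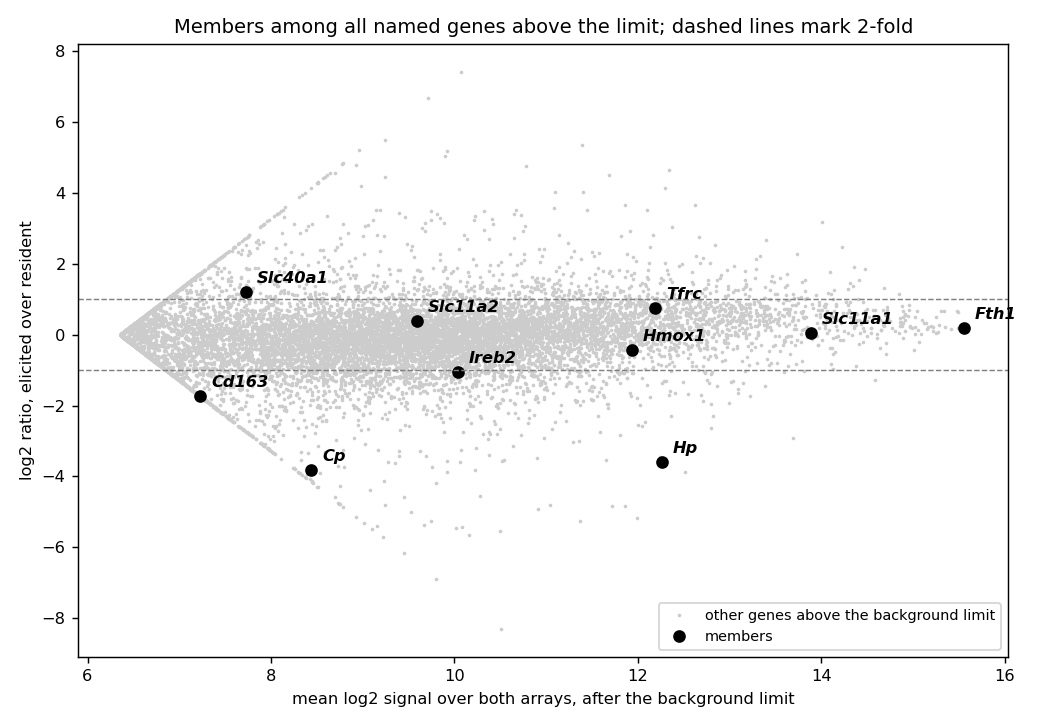
Log2 ratio of elicited over resident signal (y axis) against mean log2 signal over both arrays (x axis), for the 10 members (black, named) and all other named genes above the background limit (grey). Cp at -3.82 and Hp at -3.59 lie low in the cloud, and Ireb2 at -1.04 sits on the 2-fold line. The slanted edges on the left are genes held at the background limit on 1 array, Cd163 among them.

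The balance of higher and lower genes depended on how the arrays were scaled. Among genes apart by 2-fold or more, the share that was higher in elicited macrophages was 40.5% as deposited, 65.6% with the medians of probe sets over the limit made equal, 58.0% with quantile normalization, 50.3% with a loess trend removed and 19.9% with equal hybridisation controls. The median log2 ratio of all genes under these scalings was -0.03, 0.25, 0.16, 0.07 and -0.33. The hybridisation controls are RNAs spiked in at known amounts, and their 18 probe sets averaged 1.26-fold higher in elicited macrophages as deposited. Cp, Hp and Cd163 stayed lower by 2-fold or more under all 4 rescalings. Slc11a1 and Fth1 changed sign with quantile normalization, loess and hybridisation controls, to log2 ratios between -0.36 and -0.08. Both belong, with Tfrc, to the brightest 10% of genes, whose median log2 ratio was 0.40. Relative to that median Tfrc stood at 0.36, Fth1 at -0.22 and Slc11a1 at -0.35.

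The wider iron and haem pathway was followed through 6 lists of 80 genes, of which 67 were above the background limit. Of these 67, 13 were higher by 2-fold or more and 7 lower by 2-fold or more in elicited macrophages, 19.4% and 10.4%, beside 8.04% and 11.8% of all genes. Their median log2 ratio was 0.11 and that of all genes -0.03. The count of higher genes moved with the setting, as did the share over all genes. It was 17 with equal medians (14.2% of all genes), 8 with equal hybridisation controls (4.81% of all genes) and 7 with the median over all probe sets (5.83% of all genes). Trf, the transferrin gene, and Ftl1, the ferritin light chain gene, had no probe set naming them alone and were not analysed here.

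Among genes of iron transport and reduction, 6 of 12 above the background limit were higher by 2-fold or more and 2 lower by 2-fold or more (50% and 16.7%, beside 8.04% and 11.8% of all genes). The 6 became 2 with the background limit at the 99th percentile, where 7.58% of all genes were higher by 2-fold or more. The count was also 2 among genes above the limit on both arrays (7.55% of all genes) and with the median over all probe sets (5.83%). All 4 genes of the STEAP family of metalloreductases were at or under the background limit in resident macrophages. Steap1 reached a signal of 575 in elicited macrophages (43.8 in resident macrophages, at least 7.00-fold higher). Steap3, which reduces iron in the endosome of red cell precursors, had 325 in elicited and 69.8 in resident macrophages, at least 3.95-fold higher. Steap4 (270 in elicited and 3.17 in resident macrophages) was at least 3.28-fold higher and Steap2 (176 in elicited and 25.2 in resident macrophages) at least 2.14-fold higher. Only 1 of 2 probe sets of Steap4 and 1 of 5 of Steap2 were above the background limit on either array. Against the 92.7 of the resident array alone the bounds were 6.21-fold for Steap1, 3.51-fold for Steap3, 2.91-fold for Steap4 and 1.90-fold for Steap2, which was then under 2-fold. The markers of mesothelium and fibroblasts given above (8 of 11 higher, summed signals of 16446 in elicited and 730 in resident macrophages) were higher too, and their part in the STEAP signals was not tested.

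The others of this list were transporters. Slc39a8, a zinc and iron importer, had 275 in elicited and 91.5 in resident macrophages, 3.01-fold higher, with the resident signal under the 92.7 of the unexpressed families on that array. Only 1 of the 2 probe sets of Slc39a8 was above the background limit. Mcoln1, a cation channel of the lysosome, had 2564 in elicited and 1270 in resident macrophages, 2.02-fold higher, but its 3 probe sets ran from -1.67 to 1.01 in log2 ratio. Slc25a37, mitoferrin 1, which brings iron into the mitochondrion, had 575 in elicited and 3633 in resident macrophages, 6.32-fold lower. Slc22a17, described as a receptor for lipocalin 2, had 92.0 in elicited and 644 in resident macrophages, 7.00-fold lower, with the elicited signal close to the background limit. The mitoferrin 2 gene Slc25a28 had signals of 709 in elicited and 765 in resident macrophages (log2 ratio -0.11), unlike its paralogue, though the contrast was not tested.

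Among genes of iron storage and its regulation, 2 of 12 were higher by 2-fold or more and 1 lower by 2-fold or more (16.7% and 8.33%, beside 8.04% and 11.8% of all genes). Ncoa4, the receptor that delivers ferritin to the lysosome for breakdown, had 15231 in elicited and 5666 in resident macrophages, 2.69-fold higher, and its other probe set was higher too (1.04). Epas1, the hypoxia-inducible factor HIF-2 alpha, had 7693 in elicited and 2563 in resident macrophages, 3.00-fold higher. Hif1a, its relative, had 5332 in elicited and 13212 in resident macrophages, 2.48-fold lower. Hamp, the iron hormone hepcidin that removes ferroportin from the membrane, was close to the background limit (90.5 in elicited and 71.2 in resident macrophages).

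Among genes of haem transport, breakdown and regulation, 3 of 13 were higher by 2-fold or more and 1 lower by 2-fold or more (23.1% and 7.69%, beside 8.04% and 11.8% of all genes). Flvcr1, described as a haem exporter, had 11521 in elicited and 2863 in resident macrophages, 4.02-fold higher, and both its probe sets were higher (1.01 and 2.01). Abcg2, a transporter that can carry porphyrins, had 774 in elicited and 203 in resident macrophages, 3.82-fold higher, and Pgrmc1, a haem-binding membrane protein, had 7121 in elicited and 3131 in resident macrophages, 2.27-fold higher. Spic, the transcription factor of iron-recycling macrophages of the spleen, had 39.6 in elicited and 253 in resident macrophages, at least 3.07-fold lower. Its other probe set had a log2 ratio of -0.75. The count of lower genes in this list was 0 with the background limit at the 99th percentile (11% of all genes). It was also 0 among genes above the limit on both arrays (11.1% of all genes).

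The haem degradation steps beside Hmox1 lay within 2-fold as deposited. Hmox2, the constitutive haem oxygenase, had 7782 in elicited and 4682 in resident macrophages (log2 ratio 0.73). Slc48a1, which moves haem out of the phagolysosome, had 5746 in elicited and 5765 in resident macrophages (-0.0049). Bach1, the haem-sensing repressor of Hmox1, had 4047 in elicited and 4714 in resident macrophages (-0.22), and Nfe2l2, which encodes its activator NRF2, had 8974 in elicited and 9612 in resident macrophages (-0.10). The biliverdin reductase genes Blvra and Blvrb had log2 ratios of 0.65 and -0.30. None of these 6 genes reached 2-fold as deposited. With equal medians the count of higher genes in the list of haem transport, breakdown and regulation rose from 3 to 5. The share over all genes rose too, from 8.04% to 14.2%.

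Haem synthesis and iron-sulphur cluster assembly each had 1 gene past 2-fold as deposited. These were 9.09% and 8.33% of the genes above the background limit, near the 8.04% of all genes that were higher. Of 11 haem synthesis genes, 1, Alad, which joins the first precursors into the pyrrole, was higher by 2-fold or more (583 in elicited and 282 in resident macrophages, 2.07-fold) and none was lower by 2-fold or more (median 0.07). Of 12 iron-sulphur genes, 1, Bola3, an assembly factor of the mitochondrion, was higher by 2-fold or more (2230 in elicited and 901 in resident macrophages, 2.47-fold) and none was lower by 2-fold or more (median 0.41). Bola3 had 3 probe sets, of which 1 was above the background limit, and Alad had 2, of which 1 was above it. Both counts of higher genes were 0 with equal hybridisation controls (4.81% of all genes) or with the median over all probe sets (5.83%). The haem synthesis count was also 0 with the limit as a pseudocount (7.05% of all genes). The iron-sulphur count was 2 with equal medians (14.2% of all genes).

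The last list holds further targets of NRF2 and BACH1, the pair of factors that also controls Hmox1. Of 7 genes above the background limit, none was higher by 2-fold or more and 3 were lower by 2-fold or more (42.9%, beside 11.8% of all genes), and the median log2 ratio was -0.83. Slc7a11, the cystine importer, had 207 in elicited and 843 in resident macrophages, 4.07-fold lower, with its other probe set at -3.28. Nqo1, a quinone reductase, had 162 in elicited and 538 in resident macrophages, 3.31-fold lower. Gclm, a subunit of the enzyme that starts glutathione synthesis, had 2185 in elicited and 4987 in resident macrophages, 2.28-fold lower. The other 4 were Me1 at -0.83, Txnrd1 at -0.41, Gclc at -0.39 and Srxn1 at -0.17 in log2 ratio, beside Hmox1 at -0.42.

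**Figure D4:**
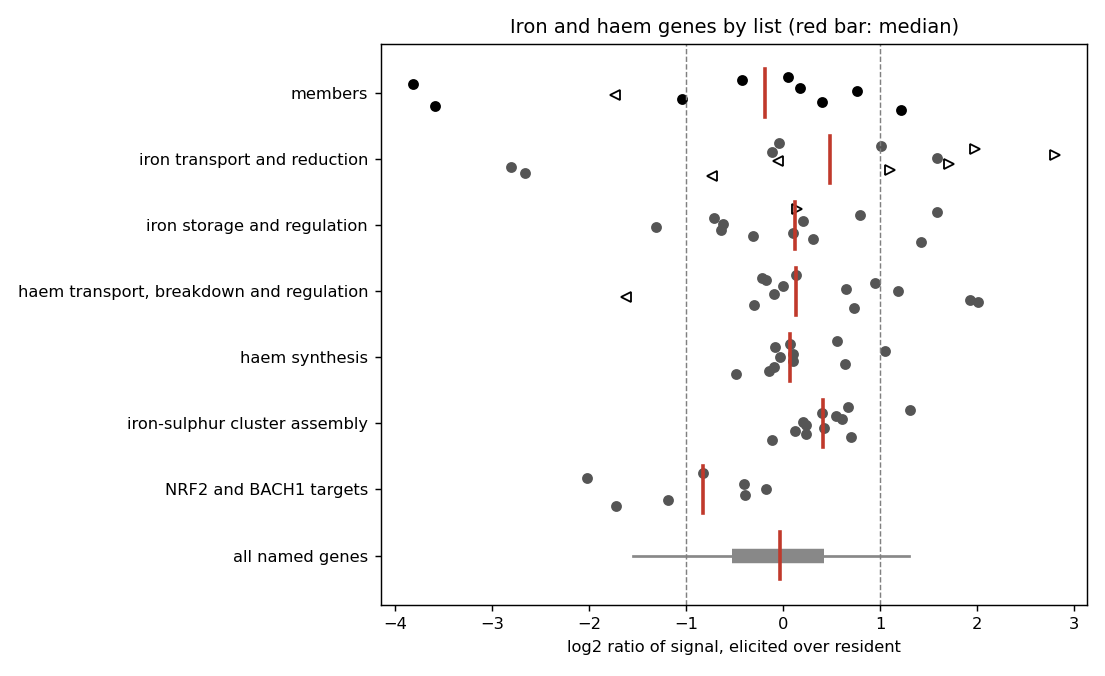
Log2 ratio of elicited over resident signal (x axis) for the 10 members, the 6 pathway lists and all named genes above the background limit (y axis). Points are genes above the background limit, open triangles are bounds, red bars are medians, and for all genes the thick bar spans the 25th to 75th and the thin line the 5th to 95th percentile. List medians run from -0.83 for the NRF2 and BACH1 targets to 0.49 for iron transport and reduction, beside -0.03 for all genes.

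**Figure D5:**
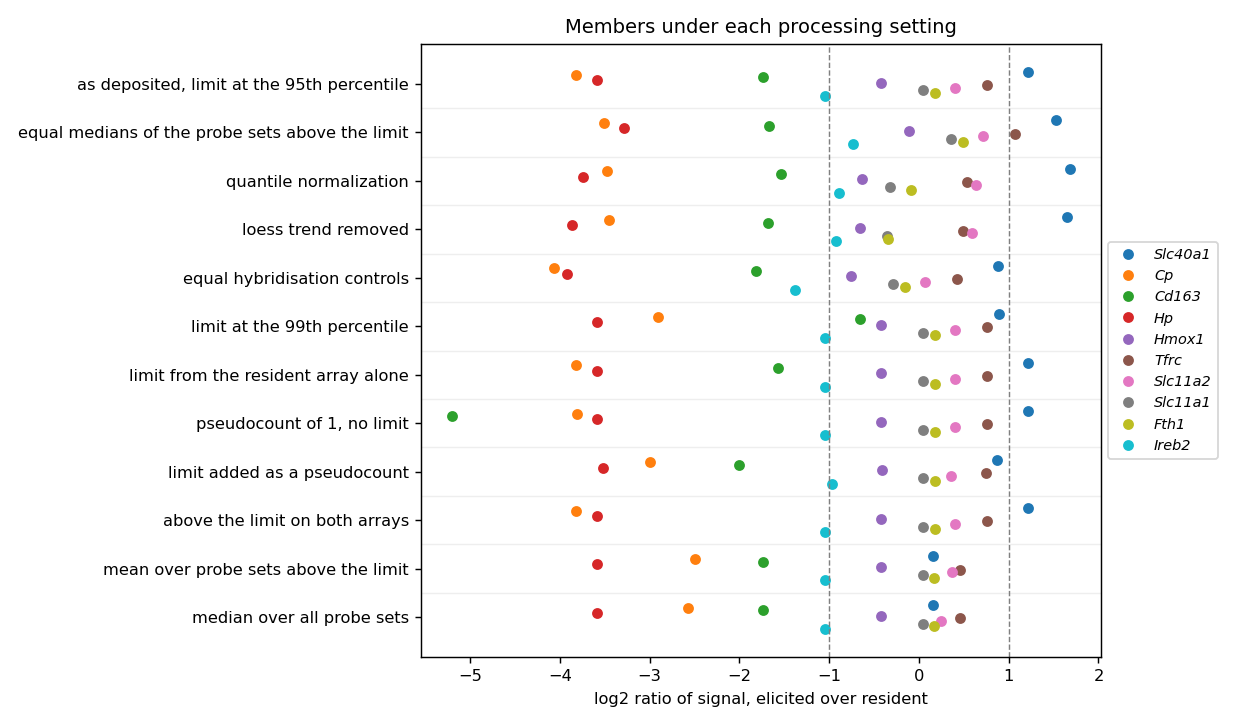
Log2 ratio of elicited over resident signal (x axis) of the 10 members under the deposited scale and 11 alternatives (y axis), with dashed lines at 2-fold. Cp and Hp lie left of the line in every setting, Cd163 crosses it with the background limit at the 99th percentile, and Slc40a1 moves to 0.16 when probe sets are averaged. Ratios of Cd163 are bounds, except with a pseudocount. Cp is a bound with the limit at the 99th percentile or from the resident array alone, and with equal hybridisation controls. Slc40a1 is a bound with the limit at the 99th percentile. The mean and median of Cp take in probe sets that are bounds.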

How the data were processed

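The authors deposited 1 intensity per probe set and array on a linear scale, made with MAS5, per the submitters' processing notes. The sources used here give no detection calls and no scaling target. The mean signal after leaving out 2% of probe sets at each end was 500.0 on both arrays, so the arrays were compared as deposited. Gene names came from the annotation of the platform, and symbols were brought up to date through gene IDs in RefSeq's GRCm38.p6 gene table (34754 of 34958 probe sets with 1 gene matched, and the rest kept their symbol). A further 932 probe sets named several genes and 9211 none, and these were not used. Array controls stayed out of the choice of a gene's representative probe set. Signals exceeded the background limit at 46.1% of probe sets in elicited and 51.9% in resident macrophages. With 1 array per group no test was run, and the number of arrays limits the precision. The 10 genes, the 6 pathway lists and the 6 marker lists were chosen with earlier results of these data known. From the lists, every pathway gene apart by 2-fold or more is named, with Aco1, Hmox2, Bach1, Nfe2l2, Slc48a1, Flvcr1, Trf and Ftl1; Slc25a28, Hamp, Blvra, Blvrb, Me1, Txnrd1, Gclc, Srxn1 and the marker genes were added after their values were seen. The alternatives were 4 scalings (loess with a span of 0.4), 4 treatments of the background limit, 1 filter and 2 ways of joining probe sets. The calculation was tested on simulated data. The software was Python 3.11.15 with statsmodels 0.14.6, pandas 2.3.3 and numpy 2.4.6.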

Additional observations from a re-analysis of the deposited data

How the results depend on the processing

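Hp and Cp were lower by 2-fold or more in elicited macrophages under all 11 alternatives, and Hmox1, Slc11a2, Slc11a1 and Fth1 were within 2-fold under all of them. The log2 ratio of Cp was -2.91 with the background limit at the 99th percentile, -2.99 with the background limit as a pseudocount, -2.50 with the mean and -2.57 with the median over probe sets. Of these, -2.91 is a bound, and the mean and median take in probe sets that are bounds. That of Cd163 was -0.65 with the background limit at the 99th percentile and -5.20 with a pseudocount of 1 and no background limit, and Cd163 gave no value among genes above the background limit on both arrays. Slc40a1 was at 0.16 with the mean and with the median over probe sets, and Fth1 was at -0.34 with the loess trend removed. Of the 10 genes, 2 were higher by 2-fold or more with equal medians (14.2% of all genes), Tfrc joining Slc40a1, and 0 with equal hybridisation controls (4.81%), with the background limit at the 99th percentile (7.58%) or as a pseudocount (7.05%), and with the mean (6.89%) or the median (5.83%) over probe sets. The number lower by 2-fold or more was 3 or 4 throughout. It was 3 with equal medians (7.46% of all genes) and 4 with equal hybridisation controls (19.4% of all genes), the ends of the range over all genes. Of the pathway genes, 17 were higher by 2-fold or more with equal medians, 8 with equal hybridisation controls and 7 with the median over all probe sets, and 6 to 9 were lower throughout. The 6 with equal medians and the 9 with equal hybridisation controls stand beside the same 7.46% and 19.4%. The SD between probe sets of a gene ran from 0.40 to 0.50. The causes of these shifts were not tested beyond what each alternative changes. No paired analysis was possible because each group has 1 array. Signals near background restrict what can be said of Slc40a1, Cd163 and most probe sets of Cp.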
